A study of Mus musculus with 36 samples.

Results

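The 10 genes described here mark the wall of blood vessels. Cldn5, Pecam1, Cdh5, Slco1a4, Abcb1a, Flt1, Kdr, Ly6c1 and Cd300lg mark endothelial cells, and Pdgfrb marks the mural cells (pericytes and smooth muscle) around them. They were chosen by name and found by Ensembl identifier, all 10 among the 37315 genes of each of the 6 deposited tables, 1 table per strain. The data are RNA-seq read counts from the whole hippocampus, both sides, of 36 mice, with 1 library per animal and no treatment named in the labels. The 6 inbred strains, C57BL/6J, A/J, 129S1/SvImJ, DBA/2J, DBA/1J and PWD/Ph, gave 3 females and 3 males each, and each strain is set here against the mean of the other 5. Females were 63 days old and males 62 in A/J, 129S1/SvImJ and DBA/1J, females were 64 and males 63 in C57BL/6J, and DBA/2J and PWD/Ph mice of both sexes were 62. Where ages differed, sex and age cannot be told apart, and in all strains the same holds for sex and the spike-in mix, since females received Mix 2 and males Mix 1. PWD/Ph mice lived alone and the other strains in groups, so strain and housing cannot be told apart for PWD/Ph. Per the submitters' processing notes, build GRCm38 (mm10) was used, with no other build named for any strain. Strain and how fully its reads align to that build cannot be told apart either, in any strain comparison.

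Endothelial cells of the brain are joined by tight junctions, carry transporters that admit nutrients and expel foreign compounds, and depend on VEGF for survival and on pericytes to keep the barrier tight. Claudin 5 (Cldn5) is the main tight junction strand protein of this barrier, while PECAM1 and VE-cadherin (Cdh5) are adhesion proteins of the cell contacts. Slco1a4 encodes an organic anion transporter and Abcb1a the efflux pump P-glycoprotein. Flt1 and Kdr are receptors of VEGF, Pdgfrb is the receptor through which endothelial PDGF recruits pericytes, Ly6c1 encodes a surface protein of mouse endothelium and some blood cells, and Cd300lg encodes an endothelial glycoprotein that can bind lymphocytes.

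The promoter windows of Flt1 and Kdr, which were low together in 129S1/SvImJ, are shown with that of Cldn5, which was not low there. Each runs from 250 bases before to 50 after the RefSeq start in GRCm38.p6. Capitals mark AGGAAG and CCGGAA, searched on both strands, which are core sequences bound by ETS factors, a family that regulates endothelial genes.
Flt1 promoter, chr5:147725962-147726261, minus strand: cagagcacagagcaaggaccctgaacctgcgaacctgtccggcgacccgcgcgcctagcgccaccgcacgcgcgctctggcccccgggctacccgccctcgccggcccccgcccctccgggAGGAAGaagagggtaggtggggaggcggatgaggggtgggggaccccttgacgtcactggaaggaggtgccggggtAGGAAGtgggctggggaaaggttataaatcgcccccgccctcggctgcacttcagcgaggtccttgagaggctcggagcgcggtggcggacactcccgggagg
Kdr promoter, chr5:75978406-75978705, minus strand: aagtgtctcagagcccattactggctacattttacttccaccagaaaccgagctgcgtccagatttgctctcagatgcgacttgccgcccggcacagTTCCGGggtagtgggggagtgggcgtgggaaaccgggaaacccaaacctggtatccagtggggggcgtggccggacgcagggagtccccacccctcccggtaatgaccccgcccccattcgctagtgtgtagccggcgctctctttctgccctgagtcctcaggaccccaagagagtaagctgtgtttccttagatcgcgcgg
Cldn5 promoter, chr16:18776597-18776896, plus strand: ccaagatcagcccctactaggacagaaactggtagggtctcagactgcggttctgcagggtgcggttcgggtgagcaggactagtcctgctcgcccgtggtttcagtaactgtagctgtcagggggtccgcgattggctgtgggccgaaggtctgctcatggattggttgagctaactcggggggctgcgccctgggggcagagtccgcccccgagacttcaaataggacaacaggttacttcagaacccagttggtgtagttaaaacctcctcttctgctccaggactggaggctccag
The Flt1 window held AGGAAG at 2 places. The Kdr window held CCGGAA at 1 place, on the other strand, so that it reads TTCCGG as printed. The Cldn5 window held neither. Windows were found for 6 of the 10 genes. They are reference sequence, the same for every strain, and no 129S1/SvImJ sequence was examined. Whether the motifs have a part in any strain difference was not tested. AGGAAG was at 1 place for Slco1a4 and 2 for Abcb1a, whose lower values in 129S1/SvImJ were lost after the correction for GC content described below. The Abcb1a window starts from a RefSeq start 92986 bases from the GENCODE gene start. Of the 2 windows of Ly6c1, which was higher in 129S1/SvImJ, 1 held AGGAAG at 3 places and the other held neither motif. The window with AGGAAG starts from a RefSeq start 167 bases from the GENCODE gene start, and the other from a start 7 bases from it. The 2 motifs share no overlap in these windows, and among 32851 mouse windows of the same length 35.4% held AGGAAG, 14.9% held CCGGAA and 45.2% held at least 1 of them.

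Libraries held 6493512 to 35232515 counts (median 21144604), with 3 DBA/2J libraries under 10000000. Libraries also differed in the level of genes rich in G and C, by strain. The most GC-rich genes stood above their own mean over the 36 libraries by a median of 0.25 to 0.52 (log2) in 129S1/SvImJ libraries and 0.18 to 0.40 in DBA/1J libraries, and were shifted by -0.94 to -0.12 in PWD/Ph libraries. Results are therefore also given after removing every library's trend over GC content and transcript length, a step chosen after seeing the data and called the GC correction below. PWD/Ph male 1 and PWD/Ph female 3 had a correlation of 0.967 between them, against at least 0.977 between libraries of the same strain and sex. The sex results in PWD/Ph are given without these 2 libraries too.

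All 10 genes were detected in every library. On the deposited FPKM scale, which is per transcript length and may have been scaled separately in each table, the median level over the 36 libraries was 15.3 FPKM for Ly6c1, 12.3 for Slco1a4, 10.0 for Cldn5 and 8.83 for Flt1. It was 4.30 FPKM for Abcb1a, 4.08 for Pecam1, 3.57 for Pdgfrb, 2.49 for Cdh5 and 2.26 for Kdr. Cd300lg was scarce, at a median of 0.292 FPKM, and had 2 to 158 counts per library, under 10 in 8 libraries. All 10 were among the 19702 genes that passed the filter on low counts. Each of 6 markers of hippocampal neurons was above 0 in all 36 libraries, among them Prox1 of the dentate gyrus at 85.2 to 183 CPM (counts scaled to library size). Markers of other brain regions were not compared, so this does not test the tissue label against them. In whole tissue, fewer vessel cells and less RNA per vessel cell cannot be told apart, here and in all that follows. Reads from vessel cells and from other cells of the tissue cannot be told apart either, for the 10 genes and for the wider lists below.

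**Figure D1:**
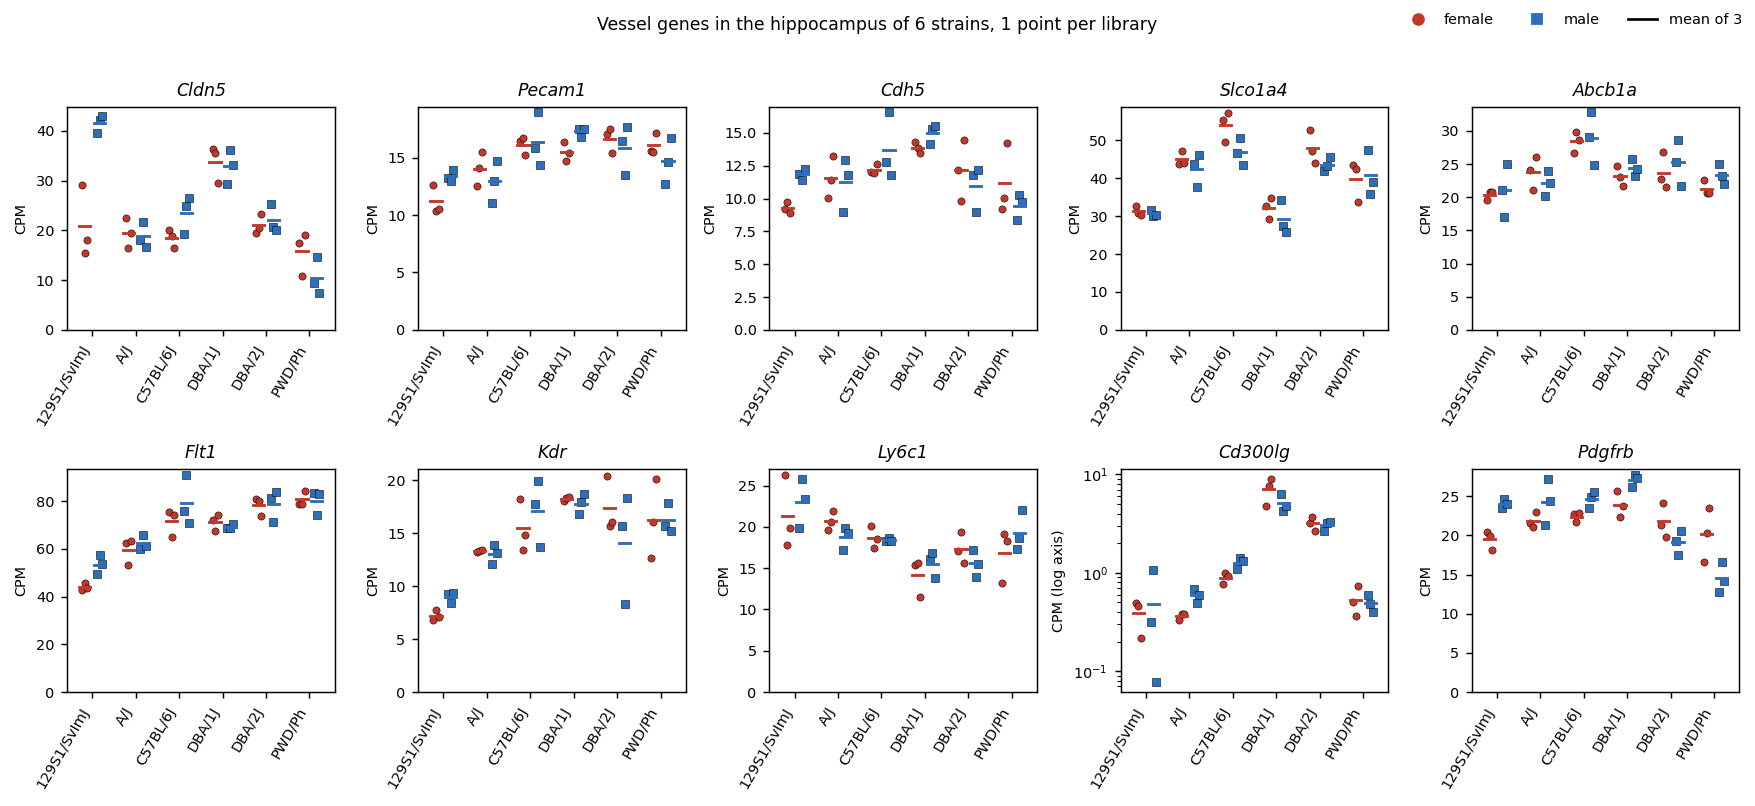
Level of each of the 10 genes in CPM in the 36 libraries, by strain along the horizontal axis, with females as circles left of males as squares and a bar at the mean of 3. The Cd300lg axis is logarithmic. Kdr and Flt1 are lowest in 129S1/SvImJ, Cd300lg is highest in DBA/1J at 4.22 to 8.96 CPM, and Cldn5 in 129S1/SvImJ lies at 15.4 to 29.2 CPM in females and 39.6 to 43.1 CPM in males.

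Strain mattered for all 10 genes. By edgeR's quasi-likelihood test with Benjamini-Hochberg adjustment, each differed among the 6 strains, with adjusted p between 3.7e-16 (Cd300lg) and 0.00041 (Cdh5). Since 92% of all tested genes did so, that count says little about vessels, and the sizes carry the description. The highest strain mean exceeded the lowest 14.0-fold for Cd300lg, 2.54-fold for Cldn5 and 2.22-fold for Kdr, and 1.34-fold (Pecam1) to 1.65-fold (Flt1) for the other 7. Without the GC correction, DBA/1J had the highest mean for 6 of the 10 genes and 129S1/SvImJ the lowest for 5. With it, Pecam1 stood highest in DBA/2J and Pdgfrb in C57BL/6J, and Cldn5 was about level in DBA/1J and DBA/2J.

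Set against the mean of the other 5 strains, 9 genes passed the threshold in 129S1/SvImJ (2 higher and 7 lower), where 67.4% of all tested genes passed, 35.3% higher and 32.1% lower. In A/J 4 passed (1 higher and 3 lower), where 33.2% of genes did, 18.9% higher and 14.4% lower. In C57BL/6J 4 passed, all higher, where 34.7% of genes did, 21.1% higher and 13.6% lower. DBA/1J had the most higher members before the GC correction, 6 of 8 that passed, where 53.4% of genes did, 28.5% higher and 24.9% lower. In DBA/2J 4 passed, all higher, where 49.5% of genes did, 25.1% higher and 24.4% lower. In PWD/Ph 6 passed (2 higher and 4 lower), where 70.5% of genes did, 34.4% higher and 36% lower. Of the 35 calls in the 6 strains, 27 remained after the GC correction and 8 did not, while 6 others then passed. After it the most higher members were in C57BL/6J (5 higher and 0 lower), while DBA/1J had 4 higher and 2 lower. Before the correction, the median log2 difference of the 10 genes was -0.29 in 129S1/SvImJ, -0.09 in A/J and 0.16 in C57BL/6J. It was 0.22 in DBA/1J, 0.10 in DBA/2J and -0.05 in PWD/Ph. Over all tested genes it was -0.02 to 0.03.

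**Figure D2:**
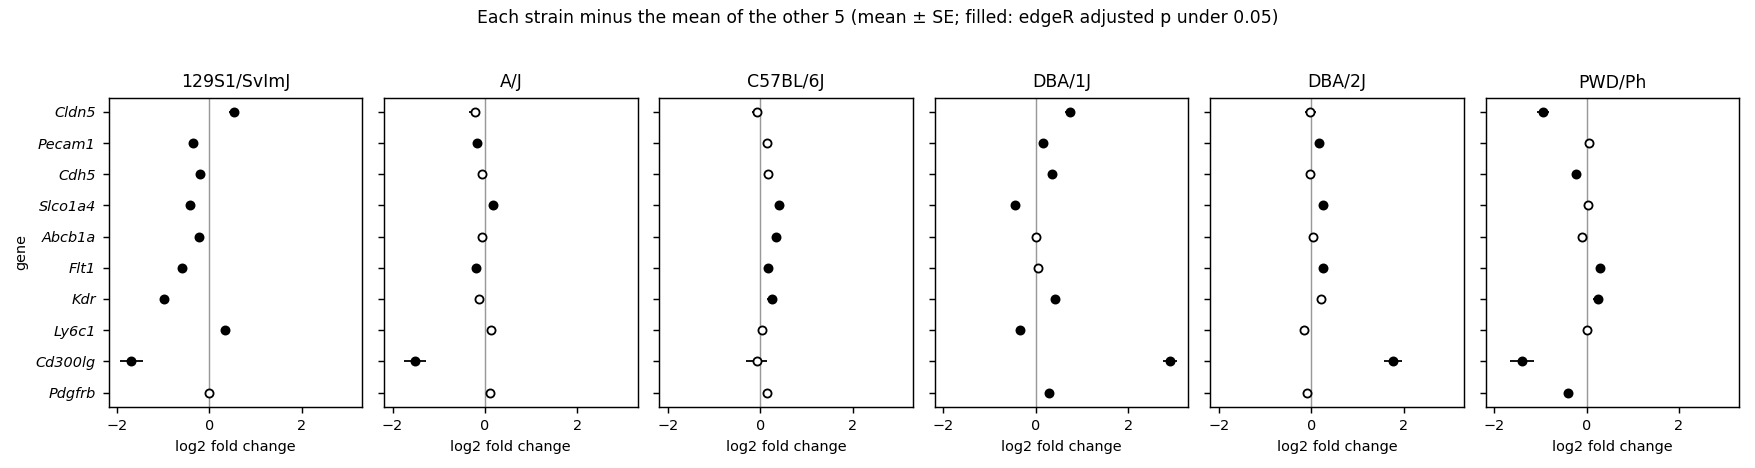
Log2 difference of each of the 10 genes between each strain and the mean of the other 5 strains, with its standard error as a bar, before the GC correction. Filled points passed an edgeR adjusted p of 0.05. Cd300lg runs from -1.69 in 129S1/SvImJ to 2.90 in DBA/1J, and the other 9 genes lie between -0.98 (Kdr in 129S1/SvImJ) and 0.74 (Cldn5 in DBA/1J).

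Both VEGF receptor genes were low in 129S1/SvImJ. Kdr, the main signalling receptor of VEGF-A, had 6.78, 7.77 and 7.07 CPM in the 129S1/SvImJ females and 9.29, 8.38 and 9.34 CPM in the males, against 8.29 to 20.4 CPM (median 15.9) in the other 30 libraries. Among those 30, DBA/2J male 2, a shallow library with 62 Kdr counts, was alone in reaching the 129S1/SvImJ range. The log2 difference was -0.98 ± 0.10 (SE), or 0.508-fold, with an edgeR adjusted p of 6.9e-10, and -0.83 ± 0.09 after the GC correction. A/J, next in the order at 13.2 ± 0.591 CPM (SD, n = 6), did not overlap with 129S1/SvImJ, and the ranges of all other neighbours in the order overlapped. Kdr was highest in DBA/1J at 18.03 ± 0.650 CPM (SD, n = 6), with a log2 difference of 0.41 ± 0.09 (edgeR adjusted p = 0.00022) and 0.40 ± 0.08 after the correction. It also passed in C57BL/6J (0.24 ± 0.09) and PWD/Ph (0.23 ± 0.09), but leaving out C57BL/6J male 2 moved the edgeR adjusted p in C57BL/6J to 0.243, and leaving out PWD/Ph female 3 moved that in PWD/Ph to 0.185. The PWD/Ph difference also missed the threshold after the GC correction (0.17).

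Flt1, a receptor that binds VEGF tightly and can act as a decoy, had 42.7, 45.7 and 43.4 CPM in the 129S1/SvImJ females and 49.4, 57.3 and 53.5 CPM in the males, against 53.1 to 91.1 CPM (median 73.9) in the other 30 libraries. The ranges met only at the lowest A/J library. The log2 difference in 129S1/SvImJ was -0.59 ± 0.05 (edgeR adjusted p = 1.5e-11), and -0.45 ± 0.05 after the GC correction. Flt1 stood lower in A/J as well (-0.19 ± 0.05), whose 6 libraries did not overlap with those of DBA/1J, the next strain up. It was highest in PWD/Ph at 80.5 CPM (0.29 ± 0.05) and also passed in DBA/2J (0.25 ± 0.05) and C57BL/6J (0.18 ± 0.05, lost without C57BL/6J male 2, adjusted p = 0.134). The A/J, DBA/2J and PWD/Ph differences missed the threshold when the deposited FPKM were tested with limma, at adjusted p of 0.376, 0.0596 and 0.0622 in that order with 0.1 added before the log.

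**Figure D3:**
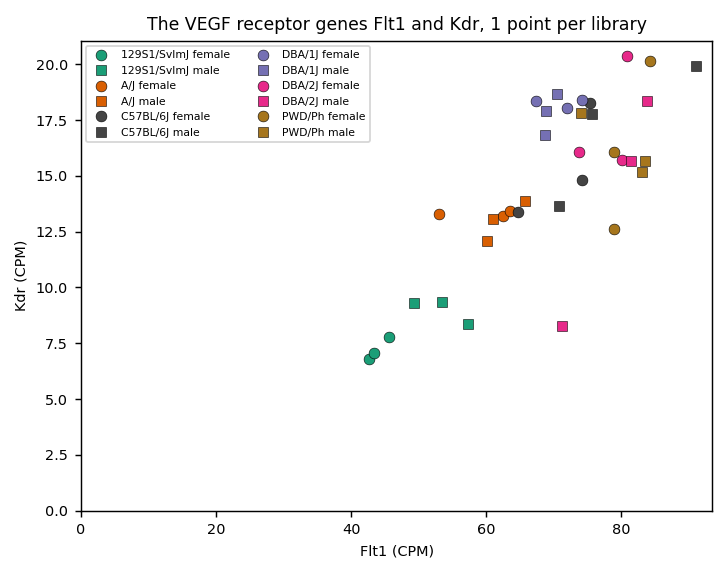
Kdr against Flt1 level (both in CPM), 1 point per library, coloured by strain, with circles for females and squares for males. The 6 libraries of 129S1/SvImJ sit in the low corner, at 6.78 to 9.34 CPM of Kdr and 42.7 to 57.3 CPM of Flt1, and DBA/2J male 2 lies low for Kdr (8.29 CPM) at 71.2 CPM of Flt1.

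Other genes of VEGF signalling, a list of 11, moved both ways in 129S1/SvImJ, where 2 rose and 6 fell (67.4% of all tested genes were called) with a median log2 difference of -0.22 (0.01 over all tested genes). The ligand Vegfb rose by 0.69 ± 0.05, and the co-receptor Nrp1 fell by 0.70 ± 0.06. In A/J 1 rose and 5 fell (33.2% of all genes called), among them the ligand Vegfa (-0.46 ± 0.06). In PWD/Ph 6 rose and 3 fell (70.5% of all genes called, median 0.13 against -0.02 over all genes), with Nrp1 higher (0.59 ± 0.06) and Vegfb lower (-0.48 ± 0.06). In DBA/1J 4 rose and 1 fell (53.4% of all genes called), and Vegfa (0.34 ± 0.06) and the co-receptor Nrp2 (0.35 ± 0.04) were among the higher. Counts of genes in this and the lists below are without the GC correction, and the part of GC content in them was not tested. Each list's count stands beside the share of all tested genes called in that strain, and a count near or under that share is no result about the list.

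Cd300lg varied most. It had 4.75, 7.71 and 8.96 CPM in DBA/1J females and 6.28, 4.22 and 4.73 CPM in DBA/1J males, and 3.22, 3.69 and 2.68 CPM in DBA/2J females and 2.69, 3.21 and 3.25 CPM in DBA/2J males. In the remaining strains it had 0.765 to 1.40 CPM in C57BL/6J, 0.360 to 0.729 CPM in PWD/Ph, 0.330 to 0.684 CPM in A/J and 0.0779 to 1.07 CPM in 129S1/SvImJ. DBA/1J lay above all other 30 libraries, which no other of the 10 genes did in any strain. Of all tested genes 0.665% set DBA/1J apart from the rest in either direction, as 4.25% did for 129S1/SvImJ, 0.513% for A/J, 0.69% for C57BL/6J, 0.766% for DBA/2J and 7.56% for PWD/Ph. DBA/2J lay clear of C57BL/6J, and C57BL/6J clear of PWD/Ph, but below that the neighbours overlapped. The log2 difference was 2.90 ± 0.15 in DBA/1J (7.48-fold, edgeR adjusted p = 1.2e-15) and 1.77 ± 0.19 in DBA/2J (3.41-fold, 8.6e-09). It was -1.69 ± 0.24 in 129S1/SvImJ, -1.51 ± 0.24 in A/J and -1.40 ± 0.26 in PWD/Ph, and all 5 passed after the GC correction, at 2.76, 1.93, -1.92, -1.54 and -1.13 in the same order.

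Among the junction genes, Cldn5 was highest in DBA/1J and lowest in PWD/Ph before the GC correction. DBA/1J females had 36.3, 35.5 and 29.5 CPM and males 29.4, 36.2 and 33.2 CPM. PWD/Ph females had 17.5, 10.8 and 19.1 CPM and males 9.36, 14.6 and 7.37 CPM. Every DBA/1J library exceeded every PWD/Ph library. The log2 difference was 0.74 ± 0.10 in DBA/1J (edgeR adjusted p = 7.5e-07) and -0.95 ± 0.12 in PWD/Ph (6.6e-08), and 0.52 ± 0.11 in 129S1/SvImJ (6.3e-05).

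The Cldn5 transcript is 60.45% GC, above 96.1% of tested genes. Genes of its GC content and length deviated in each library by 0.20 to 0.44 (log2) in DBA/1J, 0.27 to 0.70 in 129S1/SvImJ and -0.98 to -0.26 in PWD/Ph. After the GC correction the Cldn5 difference was 0.33 ± 0.07 in DBA/1J and -0.21 ± 0.08 in PWD/Ph (edgeR adjusted p = 0.031), both still past the threshold, and -0.03 ± 0.07 in 129S1/SvImJ (0.73). Differences in A/J (-0.36 ± 0.07) and DBA/2J (0.33 ± 0.08) passed only after it. A/J was then the lowest strain for Cldn5, below PWD/Ph, and DBA/2J and DBA/1J were about level as the highest.

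**Figure D4:**
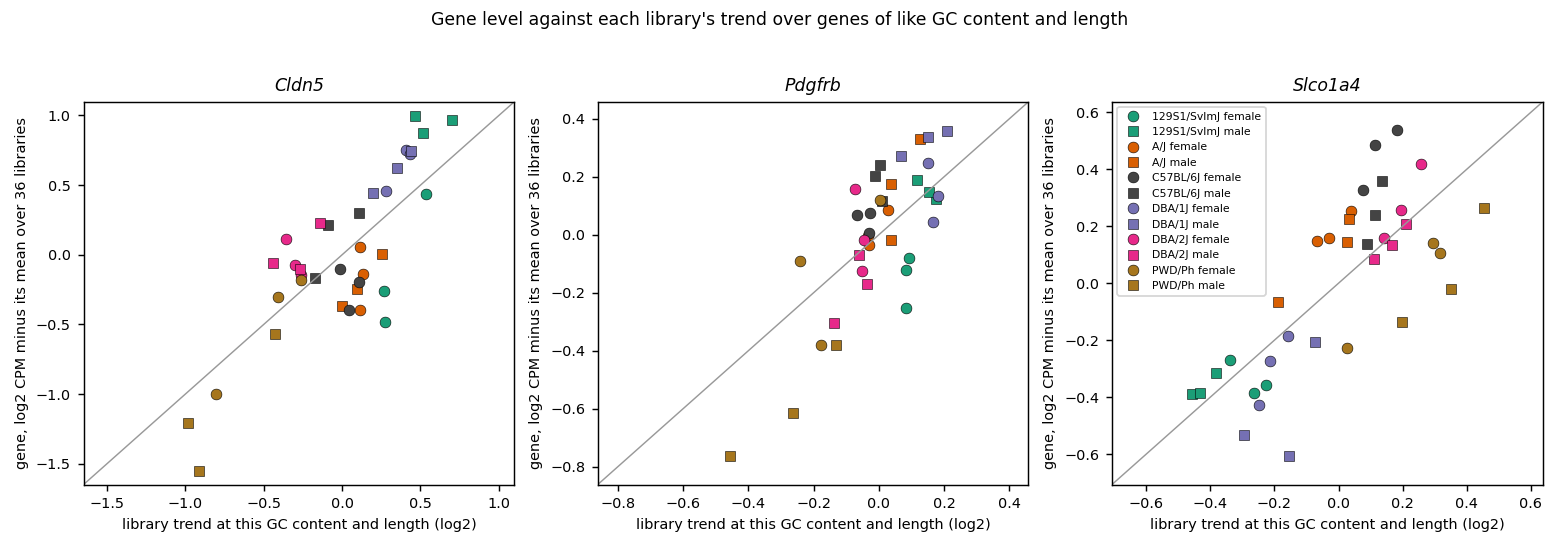
Deviation of a gene's log2 CPM from its mean over the 36 libraries (vertical axis) against the deviation of genes of the same GC content and length in that library (horizontal axis), for Cldn5, Pdgfrb and Slco1a4, 1 point per library, coloured by strain, with circles for females and squares for males. The grey line marks equality. PWD/Ph libraries lie at the low end for Cldn5, at -0.98 to -0.26 on the horizontal axis, and 129S1/SvImJ libraries at the low end for Slco1a4, at -0.46 to -0.23.

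Before the GC correction Cdh5 followed the same order at its ends, with 13.47 to 15.5 CPM in DBA/1J and 8.34 to 14.2 CPM in PWD/Ph. It was higher in DBA/1J (0.35 ± 0.08, edgeR adjusted p = 0.00039, and 0.26 ± 0.07 after the GC correction). In PWD/Ph (-0.24 ± 0.09) the call was lost after the correction (-0.11 ± 0.08) at an edgeR adjusted p of 0.202. In 129S1/SvImJ the difference was -0.20 ± 0.08 before the correction and -0.29 ± 0.07 after it (0.0010), when 129S1/SvImJ was the lowest strain. Before the correction, that call was lost on leaving out any single one of 13 libraries, 5 of them of 129S1/SvImJ, with the highest adjusted p (0.125) without 129S1/SvImJ female 3. It was also lost with limma on log2 FPKM plus 0.1 (-0.062, adjusted p = 0.576). The antisense gene Gm29682 overlaps Cdh5, and with no strand setting given, reads of the pair cannot be told apart. Pecam1 varied least, with means of 16.4 ± 1.14 CPM in DBA/1J and 12.3 ± 1.46 CPM in 129S1/SvImJ (SD, n = 6 each). It was lower in 129S1/SvImJ (-0.35 ± 0.07, and -0.36 ± 0.06 after the correction). The smaller Pecam1 differences in A/J (-0.18 ± 0.06), DBA/1J (0.16 ± 0.06) and DBA/2J (0.16 ± 0.07) passed before the correction. After it those in A/J (-0.19 ± 0.06) and DBA/2J (0.20 ± 0.06) passed, and that in DBA/1J (0.12) did not. Before the correction, each of the A/J, DBA/1J and DBA/2J calls was lost without 1 library of its own strain. The adjusted p was 0.156 without A/J male 1, 0.1004 without DBA/1J female 1 and 0.326 without DBA/2J male 3, and the DBA/2J call was lost with most other libraries left out as well.

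The transporter genes were highest in C57BL/6J. Slco1a4 had 43.4 to 57.3 CPM there, 30.2 to 32.8 CPM in 129S1/SvImJ and 25.9 to 34.7 CPM in DBA/1J, and neither of the last groups reached C57BL/6J. Its log2 difference was 0.41 ± 0.06 in C57BL/6J (edgeR adjusted p = 7.1e-07), and 0.28 ± 0.04 after the GC correction. The transcript is 40.33% GC, above only 7.5% of tested genes. Its difference in 129S1/SvImJ was -0.43 ± 0.06 before the correction and -0.00 ± 0.04 after it (adjusted p = 0.95), and in DBA/1J -0.44 ± 0.06 before and -0.22 ± 0.04 after. In PWD/Ph it was 0.03 ± 0.06 before and -0.30 ± 0.04 after (adjusted p = 7.8e-08), and in DBA/2J 0.25 ± 0.06 before and 0.04 ± 0.04 after. In A/J it was 0.17 ± 0.06 before and 0.21 ± 0.04 after, and the first of these was lost without A/J male 3 (adjusted p = 0.0942). On the deposited FPKM the DBA/2J difference reversed (-0.21, limma adjusted p = 0.027, with 0.1 added before the log), and that in DBA/1J was -0.14 and missed the threshold (adjusted p = 0.159).

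Abcb1a had 24.8 to 32.8 CPM in C57BL/6J and 17.01 to 28.6 CPM in the other 30 libraries, so the ranges overlapped. Its log2 difference in C57BL/6J was 0.33 ± 0.06 (edgeR adjusted p = 8.3e-05), and 0.25 ± 0.06 after the GC correction, while that in 129S1/SvImJ was -0.23 ± 0.06 before and 0.05 ± 0.06 after it. In PWD/Ph Abcb1a passed only after the correction (-0.30 ± 0.07, adjusted p = 0.00022). Abcb1a overlaps Gm42684 on its own strand and Gm42686 on the opposite strand, and reads of these cannot be told apart either. Near copies may share reads with these genes, and how the counting split them cannot be told from the files. Abcb1b averaged 8.44% of Abcb1a in PWD/Ph and 16.2% to 24.3% in the other strains, with a log2 difference of -1.42 in PWD/Ph. Slco1a6 averaged 8.85% of Slco1a4 in C57BL/6J and 13.6% to 24.7% in the other strains, and its difference in C57BL/6J was -0.78, opposite in sign to that of Slco1a4.

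Ly6c1 was highest in 129S1/SvImJ at 22.2 ± 3.48 CPM and lowest in DBA/1J at 14.9 ± 1.94 CPM (SD, n = 6 each). By contrast, without the GC correction DBA/1J was highest for 6 of the 10 genes. For Ly6c1 the 2 strains did not overlap, with the lowest 129S1/SvImJ library at 17.8 CPM and the highest DBA/1J library at 16.9 CPM. The log2 differences from the other strains were 0.34 ± 0.07 in 129S1/SvImJ and -0.35 ± 0.08 in DBA/1J (edgeR adjusted p = 0.00016 and 0.00043), and 0.24 ± 0.07 and -0.40 ± 0.07 after the GC correction. Its near copy Ly6c2, which may share reads, averaged 12.4% to 23.8% of it, with the highest share in A/J.

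Pdgfrb, the mural member, had 12.8 to 23.5 CPM in PWD/Ph and 22.3 to 27.7 CPM in DBA/1J, with some overlap. Its log2 difference was -0.41 ± 0.06 in PWD/Ph (edgeR adjusted p = 3.3e-07), and -0.16 ± 0.05 after the GC correction, and 0.28 ± 0.05 in DBA/1J, which missed the threshold after it (0.09 ± 0.05). Differences in 129S1/SvImJ (-0.15 ± 0.05) and C57BL/6J (0.16 ± 0.05) passed only after the correction. Other mural genes, a list of 22 for pericytes and smooth muscle, were led by Rgs5, a regulator of G protein signalling typical of pericytes. Rgs5 fell by 1.10 ± 0.06 in 129S1/SvImJ and by 0.37 ± 0.05 in A/J, and rose by 0.92 ± 0.05 in PWD/Ph and 0.62 ± 0.05 in DBA/2J. The matrix gene Vtn moved the other way, by 0.60 ± 0.08 in 129S1/SvImJ and -0.71 ± 0.10 in PWD/Ph. On the whole list 5 rose and 6 fell in 129S1/SvImJ (median -0.01), 4 rose and 10 fell in PWD/Ph (median -0.40), and 6 rose and 2 fell in DBA/1J (median 0.16). In each of these strains the share of the list that was called lay under that of all tested genes (67.4%, 70.5% and 53.4% in that order). The PDGF and angiopoietin list of 8 had 2 higher and 4 lower in PWD/Ph (70.5% of all genes called), where the ligand Angpt2 rose by 1.16 ± 0.15 and the receptor Tie1 fell by 0.87 ± 0.11.

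Markers of other cells were called in several strains, and are given beside the shares of all tested genes. In PWD/Ph 5 of 8 markers of meningeal and perivascular fibroblasts fell and 0 rose, where 70.5% of all genes were called and 36% were lower, and their summed level was 91.4 to 178 CPM, against 99.1 to 467 CPM in the other strains. Of the 8, Igf2 had the highest median over the 36 libraries, at 131 CPM, followed by Dcn at 52.4 CPM. Of 6 oligodendrocyte markers 5 fell in PWD/Ph, with a summed level of 1877 to 3001 CPM, against 2690 to 5696 CPM in the other strains. In DBA/1J 5 of 8 fibroblast markers rose (28.5% of all genes). Oligodendrocyte markers rose in 129S1/SvImJ (5 of 6, against 35.3% of all genes) and C57BL/6J (6 of 6, against 21.1%). In C57BL/6J 5 of 8 choroid plexus markers rose as well, while 3 of 8 fell in 129S1/SvImJ (32.1% of all genes). Of 5 blood markers 4 rose in A/J (18.9% of all genes) and 4 fell in DBA/2J (24.4%), and 4 of 5 microglial markers rose in A/J. Astrocyte markers summed to 2243 CPM in DBA/1J male 3, against 1123 to 1283 CPM in the other DBA/1J libraries. The part of all these cells in the vessel results was not tested.

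Of 29 endothelial identity genes, 16 rose and 0 fell in C57BL/6J, where 34.7% of all genes were called, 21.1% higher (median 0.25 against 0.02 over all genes), with the surface proteins Podxl (0.36 ± 0.04) and Emcn (0.55 ± 0.10) among them. In DBA/1J 16 rose and 3 fell, where 53.4% of all genes were called, 28.5% higher (median 0.20 against 0.03), with the transcription factor Sox18 (0.69 ± 0.11) and Eng (0.49 ± 0.08), a co-receptor of TGF-beta ligands, higher. In PWD/Ph 3 rose and 16 fell, where 70.5% of all genes were called, 36% lower (median -0.25 against -0.02), with Egfl7 (-1.24 ± 0.11), a secreted endothelial protein, and Sox18 (-1.19 ± 0.15) lower and the receptor S1pr1 (0.36 ± 0.04) higher. In 129S1/SvImJ 7 rose and 9 fell, a smaller share than the 67.4% of all genes called there, with the phosphatase Ptprb (-0.75 ± 0.06) and the surface protein Cd93 (-0.83 ± 0.09) lower. A/J had 4 higher and 4 lower (33.2% of all genes called), and Ly6a, a surface antigen related to Ly6c1, fell by 1.30 ± 0.11. DBA/2J had 9 higher and 5 lower (49.5% of all genes called).

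Barrier genes completed the lists. Of 16 further junction and transport genes, 8 rose and 1 fell in C57BL/6J (median 0.20), where 34.7% of all genes were called, among them the efflux pump Abcg2 (0.48 ± 0.06) and the junction gene Ocln (0.47 ± 0.06). In PWD/Ph 4 rose and 8 fell (median -0.17), where 70.5% of all genes were called, with Ocln lower (-0.43 ± 0.07) and the lipid transporter Mfsd2a higher (0.60 ± 0.09). Tjp1, a scaffold of the tight junction, fell by 0.47 ± 0.05 in 129S1/SvImJ and rose by 0.45 ± 0.05 in PWD/Ph. Of 14 genes of the Wnt pathway that induces the barrier, 3 rose and 5 fell in 129S1/SvImJ, including the co-receptor Lrp6 (-0.72 ± 0.06) and the receptor Fzd4 (-0.54 ± 0.10), and 3 rose and 6 fell in PWD/Ph, where the target Apcdd1 fell by 0.96 ± 0.07 and Tspan12, a partner of Fzd4, rose by 0.80 ± 0.06. The share of the Wnt list called was under that of all genes in both strains (67.4% in 129S1/SvImJ and 70.5% in PWD/Ph).

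Sex differences were few. On the average over strains 0 of the 10 genes passed between females and males (0.239% of all tested genes did), with 2 at an unadjusted p under 0.05, Slco1a4 (0.10 ± 0.04) and Flt1 (-0.08 ± 0.04), and the lowest edgeR adjusted p at 0.31. DESeq2's own test called 0 of them as well, with 2 at an unadjusted p under 0.05. Within strains, 1 of 10 passed in 129S1/SvImJ, lower in females, where 0.102% of tested genes passed, 0.0558% higher and 0.0457% lower. By edgeR 0 passed in A/J (5.32% of genes), C57BL/6J (0.279%), DBA/1J (0.0609%) and DBA/2J (0.0508%), and in each of these 4 strains 0 had an unadjusted p under 0.05 and DESeq2's test called 0. In PWD/Ph (0.122%) 0 passed, with 2 at an unadjusted p under 0.05, and DESeq2's test called 1.

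The gene that passed was Cldn5. Females of 129S1/SvImJ had 29.2, 15.4 and 18.03 CPM, and males 39.6, 42.2 and 43.1 CPM. Every female lay below every male. The log2 difference was -0.998 ± 0.20, or 0.501-fold (edgeR adjusted p = 0.026), and -0.82 ± 0.13 after the GC correction (0.00081). Genes of Cldn5's GC content and length deviated by a mean of 0.36 in these females and 0.56 in these males. The call was lost without female 2 (adjusted p = 0.34), female 3 (0.27) or male 2 (0.092), with the strain's own 6 libraries alone (0.49), and with limma on log2 of the FPKM plus 0.1 (0.14).

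**Figure D5:**
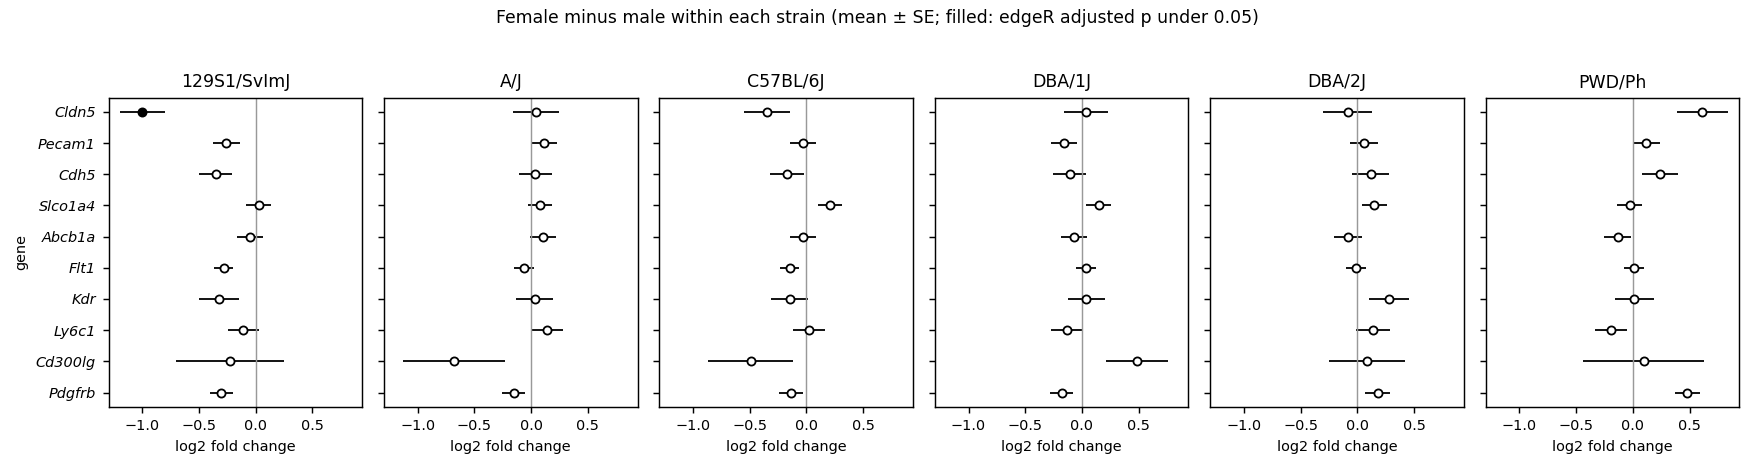
Log2 difference between females and males (female minus male) of each of the 10 genes within each strain, with its standard error as a bar, before the GC correction. Filled points passed an edgeR adjusted p of 0.05. Cldn5 in 129S1/SvImJ, at -0.998, is the only filled point, and in PWD/Ph Cldn5 (0.61) and Pdgfrb (0.48) lie on the other side of 0.

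Another 5 genes also had every 129S1/SvImJ female below every male, namely Pecam1, Cdh5, Flt1, Kdr and Pdgfrb, which makes 6 of 10 that did not overlap, where 14.2% of all tested genes did not. Their log2 differences were -0.26 to -0.35 and none passed, with edgeR adjusted p of at least 0.24. In the other strains 1 gene did not overlap in A/J (34.5% of genes), 2 in C57BL/6J (25.5%), 2 in DBA/1J (9.13%), 0 in DBA/2J (14.3%) and 0 in PWD/Ph (9.59%).

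Markers of other cells differed between the same animals. Oligodendrocyte markers summed to 3528, 3060 and 3365 CPM in 129S1/SvImJ females and 4686, 5696 and 3727 CPM in males. Fibroblast markers summed to 231, 127 and 123 CPM in females and 320, 348 and 261 CPM in males, so females lay below males for both lists. Igf2 had the highest median of the fibroblast markers, as given above. Choroid plexus markers summed to 532, 60.5 and 110 CPM in females and 1707, 2362 and 45.9 CPM in males, and male 3, lowest for them, had the highest Cldn5. None of the markers on these lists passed between the sexes, and their part in the Cldn5 difference was not tested.

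Pdgfrb in PWD/Ph had 16.6, 20.3 and 23.5 CPM in females and 12.8, 16.6 and 14.2 CPM in males. The lowest female and the highest male were level and the rest of the females lay above the males. The log2 difference of 0.48 ± 0.11 missed the threshold (edgeR adjusted p = 0.064), although it passed with DESeq2's size factors (0.0425) and in DESeq2's own test (0.0032). It was 0.34 ± 0.09 after the GC correction (0.135), and 0.29 without PWD/Ph male 1 and female 3 (0.78), and leaving out 1 library gave adjusted p from 0.0035 to 0.41. Cldn5 in PWD/Ph, at 0.61 ± 0.22 (adjusted p = 0.205), was 0.40 without that pair and 0.34 ± 0.15 after the GC correction (0.43). Genes of its GC content and length deviated there by a mean of -0.49 in females and -0.77 in males. Summed fibroblast markers in PWD/Ph were 130, 174 and 178 CPM in females and 91.4, 129 and 162 CPM in males, and their part was not tested.

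The sex difference itself differed among strains for 2 of the 10 genes, Pdgfrb (edgeR adjusted p = 0.018) and Cldn5 (0.030), where 1.64% of tested genes passed. Female minus male for Pdgfrb was 0.48 in PWD/Ph and 0.18 ± 0.11 in DBA/2J, and between -0.14 and -0.30 in the other 4 strains. For Cldn5 it was -0.998 in 129S1/SvImJ, 0.61 ± 0.22 in PWD/Ph, and between -0.35 and 0.05 in the others. After the GC correction both passed (0.022 for Pdgfrb and 0.0062 for Cldn5). Without PWD/Ph male 1 and female 3 neither did (0.090 and 0.070). Pdgfrb was also lost without PWD/Ph female 3 alone (0.0504). Cldn5 was lost without 129S1/SvImJ male 1, female 2 or female 3, A/J male 1 or female 1, or PWD/Ph female 1 or female 3, with adjusted p from 0.0506 to 0.0897, and without the 3 shallow DBA/2J libraries (0.0629).

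In the wider vessel lists 0 genes passed between the sexes in any strain but A/J, where 1.26% of tested genes were higher and 4.06% lower in females. There Vwf, the clotting factor stored by endothelium, fell in females by 0.58 ± 0.13 and S1pr1 rose by 0.28 ± 0.08 among the 29 endothelial identity genes, and Plcg1, an enzyme downstream of VEGF receptors, fell by 0.25 ± 0.07 among the 11 VEGF genes.

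Without the GC correction, the members did not vary as 1 block within groups. Over the 36 libraries, each taken less the mean of its group, the correlation of a gene's log2 CPM with the mean of the other 9 was 0.66 for Pecam1, 0.55 for Pdgfrb, 0.54 for Flt1, 0.53 for Kdr, 0.52 for Cdh5 and 0.38 for Ly6c1. It was 0.11 for Cldn5, -0.05 for Cd300lg, -0.08 for Abcb1a and -0.21 for Slco1a4. Of the 45 pairs of genes, 9 had a correlation of at least 0.4 and 14 a negative one. Points share their library's depth and GC trend, so these are descriptions. Cldn5, rich in G and C, and Slco1a4, poor in them, had a correlation of -0.41 with each other. The part of the GC trend in these correlations was not tested. Among 14886 genes of at least 2 CPM, those that followed the mean of the 10 most closely were the contractile genes Acta2 (0.79) and Myl9 (0.78), the basement membrane gene Nid1 (0.78), and Mgp (0.78), Bgn (0.77) and Islr (0.77), which encode secreted or matrix proteins.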

How the data were processed

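RNA was extracted from the whole hippocampus of 1 animal per library, and replicates are separate animals, per the labels' protocols. Which libraries shared a sequencing lane was not stated. The deposited tables hold raw read counts per Ensembl gene and the authors' FPKM values per library, per the file headers. Per the submitters' processing notes, tools included Trimmomatic 0.32, TopHat2 2.0.13, SAMtools, Cufflinks 2.1.1 and DESeq2 1.8.1, with build GRCm38 (mm10). The sources used here do not name the counter, its strand setting or how reads of near copies were assigned.

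Symbols came from GENCODE M21 (35449 of 37315 identifiers matched). Counts from all 36 libraries entered 1 edgeR 4.0.16 quasi-likelihood model (R 4.3.3) that gave every combination of strain and sex its own mean (12 groups). TMM scaling, filterByExpr (minimum count 10, minimum total 15, 19702 genes kept), Benjamini-Hochberg adjustment over those genes and a threshold of 0.05 were used. The fit had 24 residual degrees of freedom. CPM are TMM-scaled, and the SE is the absolute log2 difference divided by the square root of F. Each strain also serves in the mean that others are set against. The calculation was tested on simulated data.

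Alternatives were DESeq2 1.42.0 (its size factors, and its own test), no filter, a block for the replicate number, the 6 libraries of a strain alone, limma 3.58.1 on log2 FPKM plus 0.1 or 1, and leaving out each library. Chosen after seeing the data were the GC correction (loess, span 0.5, over 19147 genes or 97.2% of those tested), its gene set without correction, and leaving out the 3 shallow DBA/2J libraries or PWD/Ph male 1 and female 3. All 10 genes are named. From each wider list, up to 4 genes with the smallest p past the threshold and at least 1 CPM could be named, along with 5 near copies and the 6 genes most like the members. The members and lists were chosen with earlier results of these data known. The number of libraries, 3 per group, and the counts per gene limit the precision.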

Additional observations from a re-analysis of the deposited data

Results flagged for a closer look

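In 3 of 60 sets of 6 libraries (1 gene in 1 strain) a library lay further from the rest than Dixon's critical value for 6 values allows, and chance alone gives about 1 in 20. Cdh5 in C57BL/6J male 2 was 16.6 CPM, above the other 5 at 11.8 to 12.8 CPM. Slco1a4 in A/J male 2 was 37.8 CPM, below the other 5 at 43.7 to 47.1 CPM. Kdr in DBA/2J male 2, a shallow library, was 8.29 CPM, below the other 5 at 15.7 to 20.4 CPM. The difference between females and males varied among the strains for Cldn5 (edgeR adjusted p = 0.0296) and Pdgfrb (0.0178).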

How the results depend on the processing

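Over 51 results of the 10 genes, 48 of them called, alternatives other than leaving out 1 library kept direction and call in 461 cases, lost the call in 47, gained it in 2 and reversed the sign in 4. The reversals were Abcb1a (0.047) and Cldn5 (-0.032) in 129S1/SvImJ under the GC correction, and Slco1a4 in DBA/2J with limma on log2 FPKM plus 0.1 (-0.21) or plus 1 (-0.19). Leaving out 1 library kept 1747, lost 84 and gained 5. Most of the 102 uncalled results were not among the 51, so gained calls are undercounted in both tallies. The GC correction alone added 6 calls by strain.

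Members called for sex in 129S1/SvImJ went to 0 with limma at either addend and with the strain's own 6 libraries, and in PWD/Ph to 1 with DESeq2's size factors or test. The strain-dependent sex effect was called for 0 members with limma at either addend and without PWD/Ph male 1 and female 3, and for 1 without the 3 shallow DBA/2J libraries.

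Counts of all genes called for sex moved more. On the average over strains (47), they were 164 with no filter, 170 with DESeq2's test, 24 with limma plus 0.1, 24 without the shallow DBA/2J libraries, 187 without the PWD/Ph pair and 168 with the GC correction. In 129S1/SvImJ (20) they were 64 with no filter, 51 with DESeq2, 8 and 9 with limma plus 0.1 and 1, 8 with its own libraries, 42 without the PWD/Ph pair and 34 with the correction. In A/J (1049) they were 622 with limma plus 0.1, 2069 with its own libraries and 1858 with the correction. In C57BL/6J (55) they were 108 with no filter, 157 with DESeq2, 87 with limma plus 1, 563 with its own libraries, 33 without the shallow libraries, 107 without the PWD/Ph pair and 115 with the correction. In DBA/1J (12) they were 25 with no filter, 20 with DESeq2, 6 with limma plus 1, 7 with its own libraries, 7 without the PWD/Ph pair and 19 with the correction. In DBA/2J (10) they were 134 with no filter, 65 with DESeq2, 52 and 89 with limma plus 0.1 and 1, 182 with its own libraries, 6 without the shallow libraries and 41 with the correction. In PWD/Ph (24) they were 103 with no filter, 272 with DESeq2, 15 with the replicate block, 41 with limma plus 0.1, 6 with its own libraries, 11 without the shallow libraries and 8 without the pair. The interaction (323) gave 1071 with no filter, 1331 with DESeq2, 119 and 158 with limma plus 0.1 and 1, 130 without the shallow libraries and 665 with the correction.

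Leaving out 1 library gave 18 to 167 genes on average, 8 to 368 in 129S1/SvImJ, 204 to 1513 in A/J, 16 to 154 in C57BL/6J, 7 to 69 in DBA/1J, 7 to 33 in DBA/2J, 9 to 1709 in PWD/Ph and 80 to 1330 for the interaction. Members called then ran from 0 to 1 for sex in 129S1/SvImJ, and from 0 to 2 in PWD/Ph and for the interaction. By strain they ran from 8 to 9 in 129S1/SvImJ, 2 to 4 in A/J and 2 to 5 in C57BL/6J. They ran from 7 to 8 in DBA/1J, 3 to 5 in DBA/2J and 5 to 6 in PWD/Ph.

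Replicate numbers did not pair females with males: of 18 same-numbered pairs 3 had a correlation over 0.1 (range -0.34 to 0.36) and 5 correlated best with their own number. With the number as a block, Pecam1 in DBA/2J missed the threshold (adjusted p = 0.0521) and no other member call changed. Depth limits Cd300lg most, at 2 to 158 counts.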
